A study of Saccharomyces cerevisiae with 4 samples.

Results

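Transcript levels were examined for 10 genes that drive and end the meiotic divisions of budding yeast: the B-type cyclin genes CLB1 to CLB6, the polo kinase gene CDC5, the genes of the anaphase-promoting complex (APC) activators Cdc20 and Ama1, and CDC28, the cyclin-dependent kinase gene. They were taken by name from the 6682 genes listed in the deposited tables, and all 10 were found. Messenger RNA had been sequenced from Saccharomyces cerevisiae of the SK1 background, a strain used for its efficient and synchronous meiosis. The cells were at 30 °C and had spent 4 h in sporulation medium. The tested strain, ndt80pch2, lacks both NDT80 and PCH2, and the strain it was compared with, ndt80, lacks NDT80 alone. Both strains thus lack Ndt80, and no strain with NDT80 is compared here. Each had 2 samples, and since nothing in the labels states that these were separate cultures, the spread behind each p-value may be technical.

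B-type cyclins bind the kinase Cdc28 and give it the activity that starts DNA replication and nuclear division. The cell degrades them through the APC, a ubiquitin ligase that needs an activator such as Cdc20 or the meiosis-specific Ama1. In yeast meiosis, Ndt80 is the transcription factor that takes cells out of prophase, and CLB1, CLB3, CLB4, CLB5, CLB6 and CDC5 are among the genes known to be raised with it, whereas CLB2, the main mitotic cyclin gene, is known as little used in meiosis. Pch2 is an ATPase of the AAA+ family that remodels Hop1 on the chromosome axis and takes part in the prophase checkpoint.

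The coordinates of the coding regions, as the deposited tables give them, are those of R64. Chromosome VII carries CLB1 (YGR108W, 703636 to 705051, plus strand), CLB6 (YGR109C, 705359 to 706501, minus strand), CDC20 (YGL116W, 289809 to 291641, plus strand) and AMA1 (YGR225W, 945145 to 947019, plus strand). Chromosome XVI carries CLB2 (YPR119W, 771653 to 773128, plus strand) and CLB5 (YPR120C, 773875 to 775182, minus strand). CLB3 (YDL155W, 176773 to 178056, plus strand) lies on chromosome IV and CLB4 (YLR210W, 562008 to 563390, plus strand) on chromosome XII. CDC5 (YMR001C, 269019 to 271136, minus strand) lies on chromosome XIII and CDC28 (YBR160W, 560078 to 560974, plus strand) on chromosome II.

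In the reference genome of the S288C strain (R64), the 500 bases before each start codon were searched on both strands for the middle sporulation element that Ndt80 binds, spelled CACAAAA, with 3 other spellings counted alike: CACAAAT was the first of them, CGCAAAA the next and the last was CGCAAAT. A match was found before 5 of the 10 genes (CLB1, CLB5, CLB6, CDC5 and CDC20), against 30.5% of all 6659 genes searched. With a G 2 bases before the match (GNCACAAAA, GNCACAAAT, GNCGCAAAA or GNCGCAAAT, which overlap the shorter words), 3 had one (CLB6, CDC5 and CDC20), against 8.11% of genes. The stretches below are shown because both strains lack Ndt80, and whether another factor binds these words in them was not tested. CLB1, CDC5 and CDC20 also have a nearer match, which is not printed, and that of CDC20 is its match with the G. The stretches hold each match lying 200 or more bases before the start codon with 20 bases on each side. They are read 5′ to 3′ on the strand of the gene, with the match in capitals.
CLB1 (chrVII:703183-703229, plus strand): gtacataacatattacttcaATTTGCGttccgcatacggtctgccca
CLB5 (chrXVI:775390-775436, minus strand): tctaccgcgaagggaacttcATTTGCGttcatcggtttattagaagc
CLB6 (chrVII:706830-706916, minus strand): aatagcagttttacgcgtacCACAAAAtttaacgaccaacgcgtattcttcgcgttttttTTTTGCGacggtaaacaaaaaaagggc
CDC5 (chrXIII:271360-271457, minus strand): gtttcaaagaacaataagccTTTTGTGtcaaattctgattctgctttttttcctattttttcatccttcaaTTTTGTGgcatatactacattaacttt
CDC20 (chrVII:289453-289499, plus strand): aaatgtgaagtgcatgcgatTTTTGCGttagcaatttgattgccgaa
The CLB6 stretch also holds the MluI cell cycle box ACGCGT, bound by the G1/S factor MBF. It was found before 5.18% of genes and before 1 of the 10, CLB6, where it occurs at 2 places, shown here in capitals.
CLB6 (chrVII:706853-706924, minus strand): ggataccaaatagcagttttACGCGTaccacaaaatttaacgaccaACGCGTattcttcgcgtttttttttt
The forkhead element GTAAACA, bound by Fkh1 and Fkh2, was found before CLB4 and CLB6 and before 10.2% of genes. The Ume6 core GGCGGC was found before 0 of the 10 and before 9.49% of genes. These are matches of letters in S288C, and whether they are used in SK1 was not tested.

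**Figure D1:**
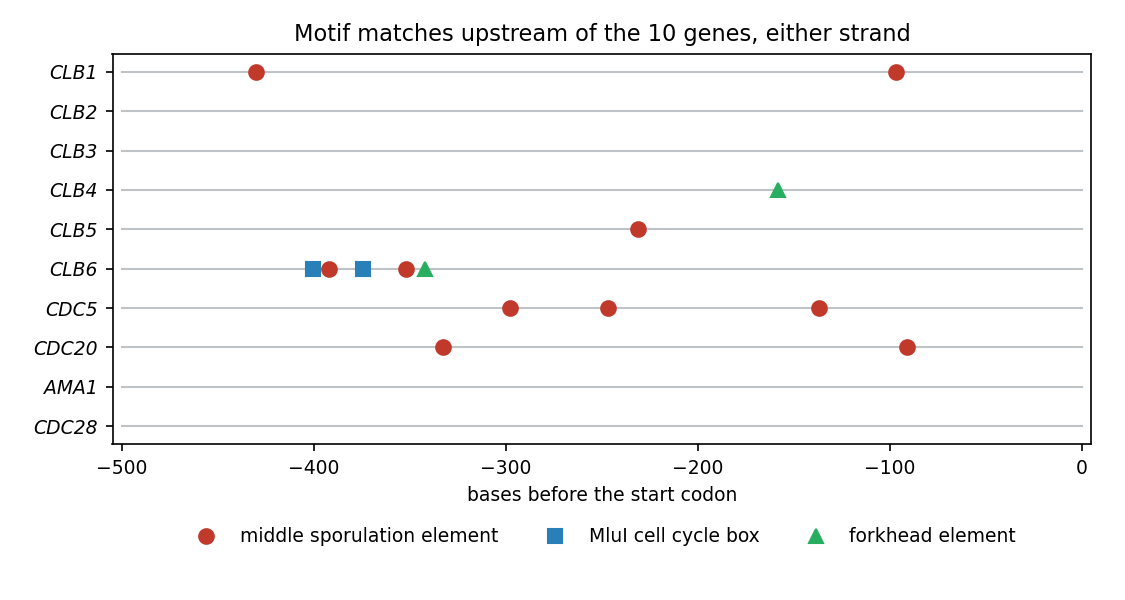
Positions of motif matches in the 500 bases before the start codon (x axis, bases) of the 10 genes (y axis), on either strand. Circles are middle sporulation elements, squares MluI cell cycle boxes and triangles forkhead elements; CLB6 is the 1 gene with squares, and CDC5 has 3 circles.

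The deposited tables give 1 value per gene and strain, on a scale like TPM (reads per kilobase of coding length, scaled per library). Each value was separated into whole reads of 2 libraries, called C and D for ndt80pch2 and A and B for ndt80, since the values do not show which is replicate 1 or 2. Recovered reads numbered 1714006 in C and 1714893 in D, against 2151477 in A and 2359760 in B. PCH2 had 0 reads in C and D, against 710 and 776 in A and B, and NDT80 had 0 throughout, with a floor of 3 reads at no more than 1.16 TPM. All 12 meiotic prophase markers examined (such as REC8, HOP1 and ZIP1) were above 0 in every library, with summed levels of 6328 and 7316 TPM in ndt80pch2 and 6402 and 6902 TPM in ndt80. As markers of cells past the Ndt80 arrest, 11 genes had been chosen (such as SPS1 and SMK1). They were also above 0 in every library, although both strains lack NDT80. Their levels summed to 1104 and 1100.3 TPM in ndt80pch2 and 1061 and 1023 TPM in ndt80. Whether these 11 genes mark such cells here was not tested, nor was their part in the levels below. For each of the 10 genes exactly 1 pair of whole reads solved every value it entered.

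Among the mitotic-type cyclin genes, CLB3, whose product acts mainly in the second meiotic division, was the most abundant. It had 182.3 and 173.6 TPM in ndt80pch2 (328 and 305 reads), against 194.7 and 185.04 TPM in ndt80 (430 and 447 reads). It stood between places 902 and 963 among the 6628 genes with a value in all 4 libraries, so its transcript was in the upper part of the range in both strains although neither makes Ndt80. The means were 177.98 ± 6.14 TPM in ndt80pch2 and 189.9 ± 6.85 TPM in ndt80 (SD, n = 2 each).

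CLB4, the closest relative of CLB3, had 35.6 and 43.3 TPM in ndt80pch2, against 48.8 TPM in both ndt80 libraries (116 and 127 reads). Both ndt80pch2 libraries lay below both ndt80 libraries. In each library CLB4 was near the median gene, which stood at 41.2 and 39.7 TPM in ndt80pch2 and at 46.5 TPM in both ndt80 libraries.

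CLB1, a cyclin gene of the first meiotic division, was close to the limit of detection. It had 5 and 6 reads in ndt80pch2 (2.52 and 3.10 TPM), against 16 and 17 reads in ndt80 (6.57 and 6.38 TPM), with a floor of 3 reads at 1.13 to 1.55 TPM. Both ndt80pch2 libraries were below both ndt80 libraries. The 11 and 33 reads in all give a ratio of 0.433 per unit of depth, with an exact 95% interval of 0.198 to 0.879. That interval covers counting error only, was worked out for CLB1 alone, and does not take out the shift of the median gene. The fitted interval, given below with that shift, includes no change. Per coding length, CLB3 exceeded CLB1 in every library, at 173.6 TPM or more against 6.57 TPM or less.

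CLB2, the mitotic cyclin gene, had 31.4 and 24.8 TPM in ndt80pch2 (65 and 50 reads), against 28.0 and 45.7 TPM in ndt80 (71 and 127 reads). Library B was high and the other 3 were alike, so the strains overlapped. CLB2 was above CLB1 in every library. In bulk RNA, fewer cells of a type and less RNA per cell cannot be told apart. The 7 other markers of dividing cells given here (SWI5, BUD4, CHS2, HOF1, CLN1, CLN2 and PCL1) were above 0 in every library, 6 of them with a mean under 10 TPM. Their summed level was 39.0 and 38.4 TPM in ndt80pch2 and 43.2 and 42.9 TPM in A and B of ndt80. Of the 7, 4 were higher in library B than in A, as CLB2 was: SWI5, CLN1, CLN2 (8.76 TPM in B and 6.74 TPM in A) and PCL1 (8.86 TPM in B and 6.23 TPM in A). The other 3 were lower in B, among them BUD4 and CHS2. Their part in the level of CLB2 was not tested.

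The S-phase cyclins Clb5 and Clb6 act together in premeiotic replication, but their transcripts stood far apart. CLB5 had 67.1 and 87.2 TPM in ndt80pch2 (123 and 156 reads), against 85.8 and 91.8 TPM in ndt80 (193 and 226 reads). The strains overlapped, since library D lay between A and B. CLB6 had 1 and 2 reads in ndt80pch2 (0.624 and 1.28 TPM), and likewise 1 and 2 reads in ndt80 (0.509 and 0.930 TPM). All 4 libraries were under the floor of 3 reads, at 1.40 to 1.92 TPM, so no fold change is given for CLB6. It was 1 of 997 genes with 3 reads or fewer in every library. CLB5, with 67.1 TPM or more, was thus readily measured in the same libraries in which CLB6 was not. MBF targets outside the 10 genes were present: all 18 examined had a mean of 12.8 TPM or more, with a median of 41.0 TPM.

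CDC5, the polo kinase gene needed to leave prophase and resolve recombination intermediates, had 34.0 and 28.0 TPM in ndt80pch2 (101 and 81 reads), against 38.2 and 40.4 TPM in ndt80 (139 and 161 reads). Both ndt80pch2 libraries were lower, and the means were 31.0 ± 4.30 and 39.3 ± 1.59 TPM (SD, n = 2 each). CDC20, the activator of the APC at the metaphase-to-anaphase transition, had 22.2 and 20.7 TPM in ndt80pch2 (57 and 52 reads), against 23.8 and 28.1 TPM in ndt80 (75 and 97 reads). Its 2 strains did not overlap either, though libraries C and A differed by little. Both genes were present below the level of the median gene in every library.

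AMA1 was the most abundant of the 10. It had 681.7 and 744.9 TPM in ndt80pch2 (1702 and 1816 reads), against 713.6 and 711.98 TPM in ndt80 (2187 and 2387 reads). Libraries A and B lay between C and D, and AMA1 held places 166 to 178 of 6628 genes. Relative to CDC20, it was 30.7 and 35.9 times as high in ndt80pch2, and 30.0 and 25.3 times in ndt80. Its coding sequence is split by an intron, and its levels are per coding length.

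CDC28, the kinase gene, had 343.7 and 373.2 TPM in ndt80pch2 (432 and 458 reads), against 351.3 and 366.8 TPM in ndt80 (542 and 619 reads). Libraries A and B again lay between C and D. The 6 cyclin genes summed to 319.6 and 333.3 TPM in ndt80pch2, and to 364.3 and 378.7 TPM in ndt80. The transcript of the kinase was 1.08 and 1.12 times the cyclin sum in ndt80pch2 and 0.964 and 0.968 times in ndt80. These ratios do not take out the shift of the median gene between strains, given below, and their difference was not tested. CLB3 made up 57.0% and 52.1% of the cyclin sum in ndt80pch2, and 53.4% and 48.9% in ndt80. CLB5 was the next, with 21.0% and 26.2% in ndt80pch2, and 23.5% and 24.2% in ndt80.

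**Figure D2:**
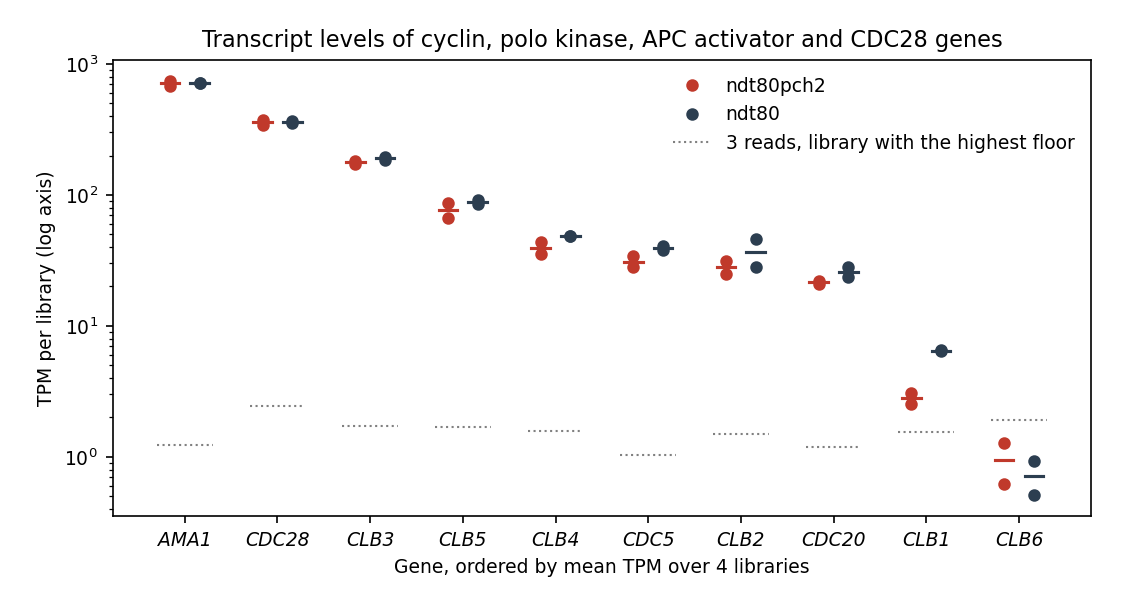
TPM per library (y axis, log scale) for each gene (x axis, from the highest to the lowest mean), with ndt80pch2 left of ndt80; points are libraries, short lines are means of 2, and dotted lines mark 3 reads in the library with the highest floor. AMA1 lies near 713 TPM in both strains, CLB1 lies at 2.52 to 6.57 TPM, and CLB6 lies under its dotted line in every library.

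The order of levels was AMA1, CDC28, CLB3, CLB5, CLB4, CDC5, CLB2, CDC20, CLB1 and CLB6 in both strains. CDC5 and CLB2 overlapped in ndt80pch2 and in ndt80, and CLB2 and CDC20 overlapped in ndt80, so these neighbours were not separable beyond the spread of the libraries. All other neighbours in this order were apart within each strain. Besides CLB1, CLB3, CLB4, CLB5, CLB6 and CDC5, the list of genes known as raised with Ndt80 held AMA1 and CDC20. Genes of that list thus covered the whole range, with AMA1 at the top and CLB1 and CLB6 last. CLB2, outside that list, stood among CDC5 and CDC20.

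The strain comparison asks whether the loss of Pch2 changes these transcripts in cells that already lack Ndt80. The 4 libraries were fitted over 5766 genes with a mean of at least 1 TPM, on log2(TPM + 1) with limma-trend. CLB6 did not pass that filter, and the other 9 genes were tested. Of these, 0 were called at a Benjamini-Hochberg adjusted p under 0.05, 0 had an unadjusted p under 0.05, and limma-voom on the recovered reads also called 0, with 1 at an unadjusted p under 0.05 (CLB1). Over all tested genes limma-trend called 0.0173% (1 gene, PCH2), and limma-voom called 0.451%. Unadjusted p-values under 0.05 were found for a lower level in 13.1% of genes and for a higher level in 2.67% by limma-trend, and in 11.6% and 3.31% by limma-voom. With median-of-ratios factors, which move the median gene close to 0, these shares were 3.73% lower and 6.52% higher, so the balance of directions depends on the scaling. A p that misses the threshold does not show that a gene did not differ, so intervals are given below.

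The median log2 fold change of all tested genes was -0.15, and 73.8% of them were below 0 before it was subtracted. Fold changes are given after subtracting it, and the p-values refer to the unsubtracted change. On the log2(TPM + 1) scale, which understates changes of low genes, CLB1 had -0.83 ± 0.42 (SE), with a 95% interval of -1.85 to 0.19 (limma adjusted p = 0.319). CLB2 had -0.20 ± 0.27, with an interval of -0.85 to 0.44. For the more abundant cyclin genes the intervals were narrower: -0.17 to 0.27 around 0.05 for CLB3, -0.53 to 0.22 around -0.16 for CLB4, and -0.43 to 0.30 around -0.06 for CLB5. CDC5 had -0.19 ± 0.17 (-0.60 to 0.22, limma adjusted p = 0.354), and CDC20 had -0.11 ± 0.19 (-0.57 to 0.35). AMA1 and CDC28 had 0.15 and 0.14, with intervals of -0.07 to 0.37 and -0.07 to 0.36. Every interval thus included 0, and AMA1 and CDC28, which were at the same TPM in both strains, came out above 0 through the shift of the median gene.

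In 5 of the 9 tested genes (CLB1, CLB3, CLB4, CDC5 and CDC20) both ndt80pch2 libraries lay below both ndt80 libraries, and in 0 they lay above. Over all tested genes 42.4% were lower without overlap and 9.37% were higher, so 5 of 9 was close to that share. Relative to the median gene, 6 of the 9 were below 0 and 3 were above (CLB3, AMA1 and CDC28), against 50% of all tested genes below. The median of the 9 was -0.11, within the middle 50% of all tested genes, which ran from -0.16 to 0.16. CLB1 lay outside the range that held the middle 90% of genes, -0.51 to 0.51, and the other 8 lay inside it.

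**Figure D3:**
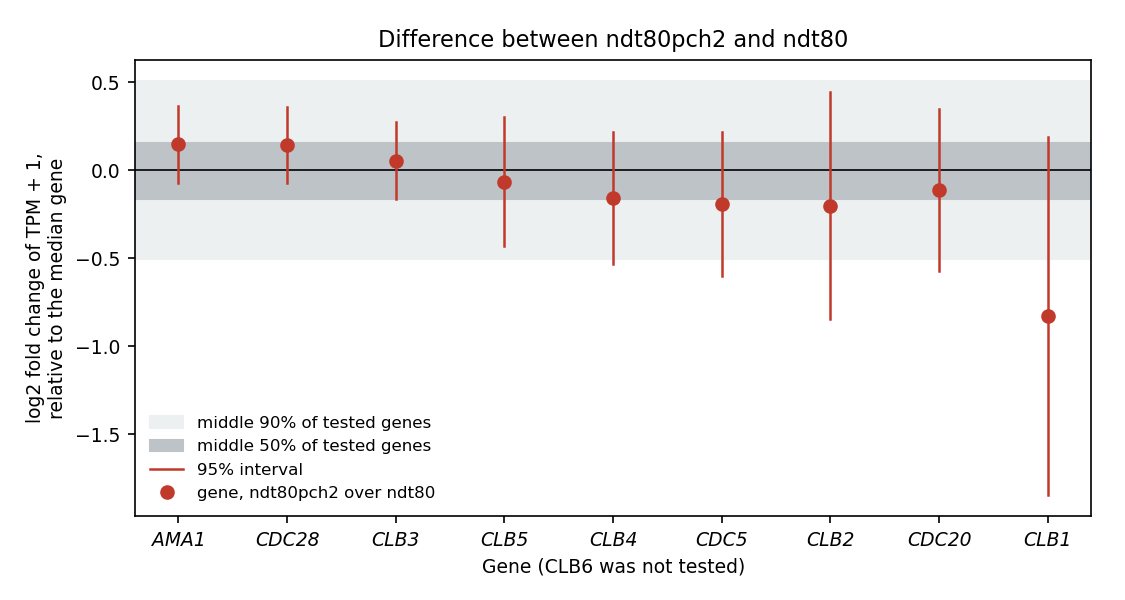
Log2 fold change of TPM + 1, ndt80pch2 over ndt80, relative to the median of all tested genes (y axis), for the 9 tested genes (x axis). Points are fitted values and lines 95% intervals; the bands hold the middle 50% and 90% of 5766 tested genes, every interval crosses 0, and CLB1 is the 1 point outside the wider band.

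Genes known as Ndt80 targets outside the 10 were set beside them. Of 21 middle sporulation genes, 20 were tested and 0 were called in either direction. Their median was 0.21 relative to all genes, whose median is 0 by construction. The 12 meiotic prophase markers, given below, also had a median of 0.21. Transcripts of the middle sporulation genes were not at 0 without Ndt80: the median of their mean levels was 59.7 TPM, and 2 were under 10 TPM. SPS2, a spore wall gene, had 232.7 and 254.8 TPM in ndt80pch2, against 202.7 and 207.1 TPM in ndt80. DON1, which acts at the prospore membrane, had 167.7 and 156.5 TPM in ndt80pch2, against 166.3 and 129.7 TPM in ndt80. SSP2, needed for the outer spore wall, had 38.4 and 51.1 TPM in ndt80pch2, against 77.1 and 75.3 TPM in ndt80 (limma adjusted p = 0.254). SPS2, DON1 and SSP2 thus lay above CLB1 and CLB6 in every library.

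All 13 core subunits of the APC were tested and 0 were called, with a median of 0.02. DOC1, which helps the APC hold its substrates, was the highest, with 341.2 and 344.6 TPM in ndt80pch2, against 308.9 and 318.3 TPM in ndt80. SWM1, a subunit needed for sporulation, had 126.6 and 115.4 TPM in ndt80pch2, against 107.7 and 118.1 TPM in ndt80. APC1, the largest scaffold subunit, had 49.8 and 55.2 TPM in ndt80pch2, against 69.6 and 74.7 TPM in ndt80 (limma adjusted p = 0.287). AMA1 was thus above every core subunit of the complex that its product activates, and CDC20 was below most of them.

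Of 9 genes for APC regulators and substrates 0 were called, with a median of 0.06. PDS1, the securin that Cdc20 and Ama1 direct to the APC, was the most abundant, with 371.5 and 398.1 TPM in ndt80pch2, against 403.2 and 414.5 TPM in ndt80. CDH1, the third APC activator gene, had 62.9 and 52.0 TPM in ndt80pch2, against 68.0 and 62.8 TPM in ndt80, which placed it above CDC20 and below AMA1 in every library. BUB3, a spindle checkpoint gene, had 173.2 and 203.8 TPM in ndt80pch2, against 175.1 and 160.1 TPM in ndt80. MAD3, whose product holds Cdc20 inactive, had 36.4 and 35.9 TPM in ndt80pch2, against 56.3 and 41.9 TPM in ndt80 (limma adjusted p = 0.319), and the strains did not overlap.

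Of 12 genes for regulators of the cyclin-dependent kinase 0 were called, with a median of -0.02. IME2, a meiosis-specific kinase gene, was the highest, with 950.5 and 1131 TPM in ndt80pch2, against 892.3 and 1027 TPM in ndt80. MIH1, the phosphatase that activates Cdc28, had 171.9 and 197.1 TPM in ndt80pch2, against 210.9 and 206.2 TPM in ndt80. NET1, which holds the mitotic exit phosphatase Cdc14 in the nucleolus, had 245.3 and 232.8 TPM in ndt80pch2, against 284.7 and 268.3 TPM in ndt80.

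The cyclin genes of G1 were low: 6 were tested, 0 were called, and their means ran from 6.22 to 16.4 TPM. Their median fold change relative to all genes was 0.10. CLN1 had 7.39 and 8.02 TPM in ndt80pch2, against 4.61 and 4.86 TPM in ndt80 (17 and 18 reads, against 13 and 15 reads; limma adjusted p = 0.409). These G1 cyclins thus lay below CLB2 to CLB5 and above CLB6.

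Of 16 other genes of the mitotic G2/M cluster, to which CLB1, CLB2, CDC5 and CDC20 belong in dividing cells, 15 were tested and 0 were called; HST3 could not be separated and was left out. Their median was -0.13, and 10 of the 15 were lower without overlap, beside 42.4% of all tested genes, a share that was not tested against theirs and that includes the shift of the median gene. The median of their mean levels was 17.2 TPM, with SWI5, CHS2 and HOF1 among the 5 under 10 TPM. DBF2, a mitotic exit kinase gene, had 34.0 and 36.1 TPM in ndt80pch2, against 52.4 and 47.3 TPM in ndt80 (limma adjusted p = 0.287). MOB1, its partner, had 65.7 and 41.0 TPM in ndt80pch2, against 74.5 and 71.4 TPM in ndt80.

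Of 18 other MBF targets 0 were called, with a median of -0.06. SMC3, the cohesin subunit gene, had 135.3 and 122.9 TPM in ndt80pch2, against 156.0 and 157.0 TPM in ndt80 (limma adjusted p = 0.290). RFA2, a subunit of the single-strand DNA binding complex, had 229.2 and 265.0 TPM in ndt80pch2, against 241.2 and 289.7 TPM in ndt80.

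Of 12 genes for transcription regulators of these cyclin genes, 11 were tested and 0 were called, with a median of -0.02; NDT80 itself was at 0. IME1, the master regulator of meiotic entry, had 498.9 and 600.7 TPM in ndt80pch2, against 539.0 and 587.0 TPM in ndt80. HST1, part of the Sum1 complex that represses middle genes, had 263.4 and 297.8 TPM in ndt80pch2, against 260.3 and 266.5 TPM in ndt80. SWI6, a subunit of MBF, had 39.4 and 32.1 TPM in ndt80pch2, against 52.3 and 48.3 TPM in ndt80 (limma adjusted p = 0.287), and FKH2, a forkhead factor of the G2/M cluster, had 41.9 and 42.4 TPM, against 51.9 and 60.8 TPM (limma adjusted p = 0.290). Both were lower without overlap and neither was called.

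Of the 12 meiotic prophase markers 0 were called by limma-trend, and 1, DMC1, the meiotic recombinase gene, was called lower by limma-voom (adjusted p = 0.000529). The median of the 12 markers was 0.21 relative to all genes. DMC1 had 230.8 and 252.4 TPM in ndt80pch2, against 476.2 and 490.8 TPM in ndt80 (limma-trend adjusted p = 0.07, and 0.000529 to 0.762 over the 11 settings). IME2, counted in this list too, and REC8 lay above AMA1 in every library, with 912.8 and 1051 TPM for REC8 in ndt80pch2, against 830.8 and 858.6 TPM in ndt80.

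**Figure D4:**
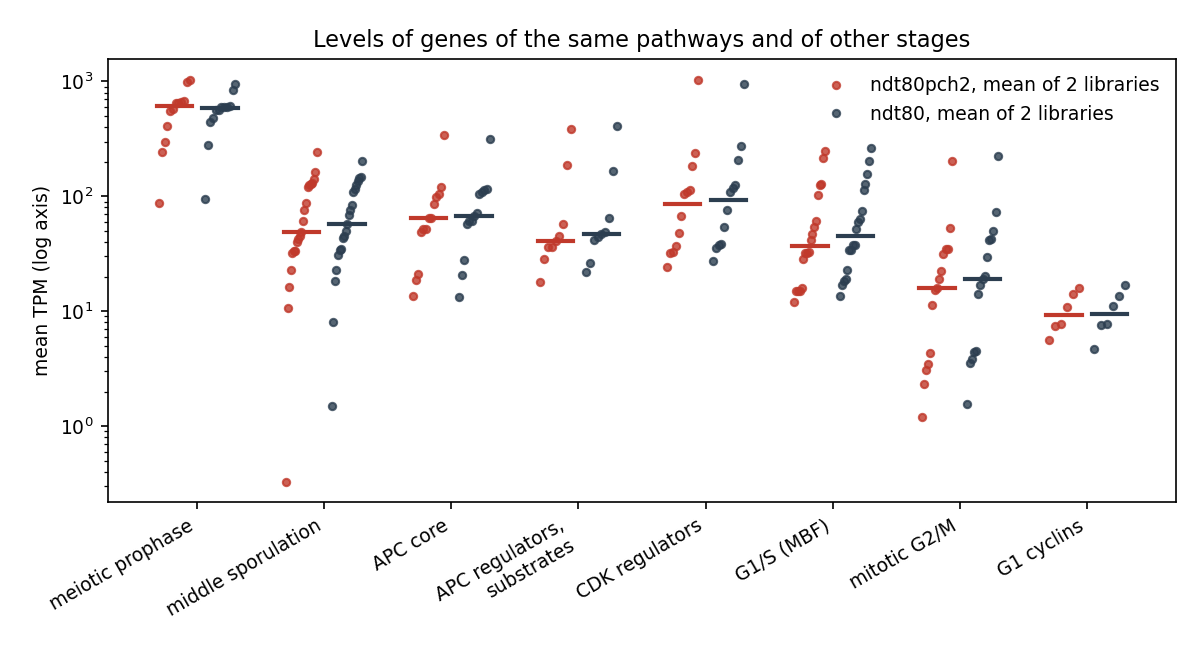
Mean TPM of 2 libraries (y axis, log scale) for each gene of 8 lists (x axis), with ndt80pch2 left of ndt80; each point is a gene and each line the median of the list. Meiotic prophase genes lie highest, G1 cyclins and mitotic G2/M genes lowest, and the strains' points span similar ranges in each list.

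Sequences shared by the 10 genes and the positions of neighbours were examined. The longest run of bases shared exactly by any pair was 17, between CLB1 and CLB2, far shorter than the reads of 150 bases. It is shown because it is the longest exact run, and CLB5 and CLB6 shared at most 15. Likeness with mismatches and the placing of reads were not examined.
CLB1 and CLB2 shared run (R64): gagacagacggtgcatg
CLB1 and CLB6 stand tail to tail on chromosome VII, as do CLB2 and CLB5 on chromosome XVI. The coding regions of CLB1 and CLB6 end at 705051 and 705359, with 307 bases between. Those of CLB2 and CLB5 end at 773128 and 773875, with 746 between. The sources used here do not state whether counting used the strand. In both pairs the neighbours differed in level: CLB5 was above CLB2 in every library, and CLB1 above CLB6. A difference in level cannot show whether reads of a gene were counted for its neighbour, which was not tested.

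Read row by row, the deposited ndt80 column would give other values for these genes. From row 94, each of its values except the last 18 averages the gene named in that row in library A with another gene in library B. CLB1 is listed there at 197.1, of which 3.29 is its own part and 193.8 belongs to CLG1, and CLB6 is listed at 97.99, of which 97.7 belongs to CLU1. The row of CDC20 holds 80.8, of which 11.9 is its own. For AMA1 the row shows 377.1, against a recovered ndt80 mean of 712.8 TPM. The deposited ndt80pch2 column, which is not mixed, lists 2.81 for CLB1, 0.952 for CLB6, 21.5 for CDC20 and 713.3 for AMA1. Taken without separation, the ndt80 values of CLB1, CLB6 and CDC20 would be far too high, since their rows hold reads of other genes. The ratio of ndt80pch2 to ndt80 would then be 0.0143 for CLB1 and 0.266 for CDC20, against 0.434 and 0.827 from the recovered means. AMA1 and CDC28 would appear 1.89 and 1.81 times as high in ndt80pch2 as in ndt80, where the recovered libraries overlapped.

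Of 5181 other genes with a mean of at least 10 TPM, MSS51 and GRX3 were among the 3 whose log2(TPM + 1) values, centred over the 4 libraries, lay nearest to CDC5, at root-mean-square distances of 0.014 and 0.018. MSS51 had 40.8 and 34.0 TPM in ndt80pch2, against 45.2 and 47.8 TPM in ndt80. The likeness rests on 4 libraries and is given as a description only.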

How the data were processed

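The submitters' processing notes name DESeq2 2.11.40.6, HTSeq 0.9.1, HISAT2 2.1.0 and FastQC, and the builds R64 and sacCer3, without saying what each was used for. The deposited column is unnamed in the header, and its TPM-like unit was inferred from the values. Each deposited value, times coding length, was solved as a sum of whole multiples of 2 steps, 1 per library, within 0.55 of the last digit (wider where the 2 library values were rounded first). This solved 99.9% of ndt80pch2 values above 0. From row 94, the second term was taken as the gene at that row of the list without the 18 mitochondrial rows. This solved 99.8% of ndt80 values above 0, against 9.32% in printed order. The last 18 rows hold library A alone and are not in these shares. Of 6664 nuclear genes, 6628 had a unique solution in all 4 libraries, and 36 were left out. The separation and the fit were tested on simulated data.

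Genes with a mean TPM of at least 1 (5766) were fitted by limma-trend (limma 3.58.1, R 4.3.3) to log2(TPM + 1), with strain as the only term, and p-values were adjusted by Benjamini-Hochberg over all of them. The tests were planned for values per sample; separating pooled columns was known from earlier work on these data, and members and lists were chosen with earlier results known. Named list genes were the 3 most abundant and the 2 of smallest p in each list, of which the text gives a part; other genes were chosen after their values were seen. Alternatives changed the pseudocount, the filter, the scaling or the test, left out 1 library each, or read the deposited columns row by row. Coordinates of all 10 genes were the same in the deposited tables and the R64 reference. A marker of dividing cells and a gene near CDC5 in pattern are not reported here. The exact interval of the CLB1 read ratio and the floors of 3 reads cover counting error only, while the intervals of log2 fold changes come from the limma-trend fit and the spread between libraries. Python 3.11.15, numpy 2.4.6, pandas 2.3.3, scipy 1.17.1 and matplotlib 3.10.9 were used.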

Additional observations from a re-analysis of the deposited data

How the results depend on the processing

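No paired analysis was possible because the recovered libraries carry no replicate numbers. None of the 9 tested genes was called under pseudocounts of 0.1 or 5, no filter, a mean TPM of at least 10 (which drops CLB1), median-of-ratios factors, limma-voom, or without any 1 library; CLB6, fitted with no filter, was not called either (adjusted p = 0.801). The lowest adjusted p over these settings was 0.228, for CDC5 and CLB1. Values relative to the median gene changed sign for CLB2 without library B (0.15; range -0.55 to 0.15 over libraries left out), CLB5 without C (0.13; -0.27 to 0.13) and CDC20 without B (0.0082; -0.23 to 0.0082). Without a change of sign, CLB1 (-0.83) had -0.42 with a pseudocount of 5 and -1.03 with 0.1, CLB4 (-0.16) had -0.013 without C and -0.31 without D, and CDC5 (-0.19) had -0.32 without C and -0.071 without D. The median over the 9 genes, -0.11, ran from -0.16 to 0.0082 when 1 library was left out. Read row by row, the deposited columns gave a median of 0.47 and turned CLB2 (0.82), CLB4 (0.47) and CLB5 (0.47) to the other sign; the cause is the mixing of rows. Among the listed genes, limma-voom and a mean TPM of at least 10 called 1 each (DMC1), against 0. The value of 8 genes at 10 TPM or more in every library did not change. Leaving out a library could not lower it, nor raise it, since CLB1 and CLB6 were under 10 TPM in each. Several solutions per value were not tried, since each of the 10 genes had 1. Where 1 library was left out, the lone library of its strain was assumed to vary like the others. Low reads limit CLB1 and CLB6.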
